A study of Drosophila melanogaster with 12 samples.

Results

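cherub is a long noncoding RNA of Drosophila melanogaster (CR43283 in the deposited tables, lncRNA:cherub or FBgn0262972 on chromosome arm 3R in the BDGP6 annotation) and 1 of the 15339 genes counted in larval type II neuroblasts. It was chosen by its own values in these libraries, its share of the gene counts and its rank, so its counts, share, rank and levels by age are given as descriptions without a test. Type II neuroblasts are neural stem cells whose daughters, the intermediate progenitors, divide several more times before they make neurons. The 4 groups were sorted, GFP-labelled type II neuroblasts of larvae 24, 36, 50 and 84 h after hatching, with 3 libraries per age and 12 in all, each made from about 100 pooled cells of 30 dissected brains. Larvae of every group hatched within 2 h of each other and grew at 25 °C, and every library carried the same volume of ERCC spike-in mix 1. The driver of the GFP label, the strain and the sex of the larvae were not stated in the labels. Nor do the labels say whether each library had its own dissection, so a p-value here reflects the variation among libraries and that variation could be technical.

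As background, cherub is retained at the basal cortex of dividing type II neuroblasts and passes into the daughter cell that becomes an intermediate progenitor. This localisation depends on Staufen, an RNA-binding protein that rides on the scaffold Miranda during asymmetric division. In brains that lack the differentiation factor Brat, cherub remains in the tumour cells, where it promotes the association of Staufen with Syncrip (Syp), an RNA-binding protein of old neuroblasts whose counterpart in young neuroblasts is Imp.

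The libraries held between 4512098 and 8391731 gene counts and between 6930 and 73316 ERCC counts, from 93 to 132 sorted cells. Libraries of the same age differed by more than sampling noise (chi-square per degree of freedom 10.7 to 48.1, with reads taken as independent), so none were merged; separate amplifications of the same cells would differ in this way too. The 14 listed markers of type II and general neuroblasts summed to between 4617 and 7304 CPM, with no other cell population for comparison. CPM are counts per 1e6, scaled to TMM-adjusted totals of the genes tested. All 14 were detected at every age, but the list includes Asense (ase), which type II neuroblasts lack. ase was low, with averages of 3.28 to 7.69 CPM over the ages. The 8 hemocyte and fat body markers summed to 1.38 to 8.68 CPM, with Lsp2 and nimC1 at 0 in all libraries of 24, 36 and 50 h. The 8 measured neuron markers summed to 410 to 566 CPM, with elav and fne as the most abundant, and the 8 glia markers to 362 to 649 CPM, mostly Eaat1 and nrv2, while the glial regulator repo averaged 0.0574 to 1.89 CPM. The 7 intermediate progenitor markers summed to 58.2 to 87.3 CPM at 24 h, 79.9 to 133 CPM at 36 h, 172 to 218 CPM at 50 h and 87.9 to 125 CPM at 84 h. Of these members erm, ham and opa averaged at most 1.40 CPM at any age, while D, pros and ey were higher. D had 55.7 to 99.7 CPM and pros 64.7 to 126.5 CPM in the 50 h libraries, and ey had 24.5 to 47.9 CPM in those of 84 h. The part of these marker levels in the course of cherub was not tested.

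cherub took between 4.17% and 19.4% of all gene counts in a library. At 24 h its share was 14.0%, 11.1% and 9.43% in replicates 1, 2 and 3, and at 36 h it was 19.4%, 16.5% and 13.1%. At 50 h the share was 11.6%, 12.3% and 10.3%, and at 84 h it was 7.84%, 4.17% and 4.89%. The mean was highest at 36 h, though replicate 3 of 36 h lay below replicate 1 of 24 h. The 50 h range lay within that of 24 h, and the 84 h libraries lay below all others. With 222353 to 1172273 cherub counts per library, the Wilson 95% interval of a share was at most 0.0677 percentage points wide. Such intervals cover counting error only, since no molecular identifiers are named for these amplified libraries.

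**Figure D1:**
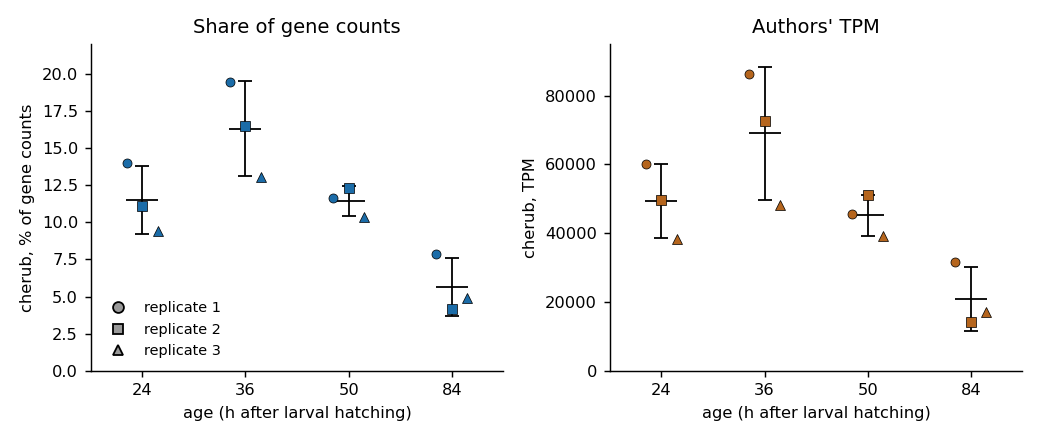
cherub in each of the 12 libraries by age (h after larval hatching, ages evenly spaced), as a percentage of gene counts (left) and as the authors' TPM (right). Symbols are replicates, horizontal bars the mean and whiskers ± SD (n = 3). The 84 h libraries lie between 4.17% and 7.84%, below every other library.

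By counts cherub was the most abundant RNA of the table in 8 of the 12 libraries and the second in the other 4, which were 24 h replicate 3 and the 84 h libraries. There it stood behind CR41602, a pseudogene of 18S rRNA. These RNAs and CR40677, a pseudogene of 2S rRNA, were the 3 above 1% of gene counts in every library. The gene totals behind each share thus include CR41602, at 5.09 to 11.55% of them, and CR40677, at 4.09 to 8.16%. The count of cherub was 2.268, 1.696 and 2.564 times that of CR41602 at 36 h, and 0.679, 0.480 and 0.439 times at 84 h. On the length-corrected TPM scale cherub ranked second to CR40677 in 10 libraries, and its rank was 4 in 84 h replicate 2 and 3 in 84 h replicate 3. cherub averaged 49347 ± 10819 TPM at 24 h, 69009 ± 19272 TPM at 36 h, 45225 ± 5913 TPM at 50 h and 20941 ± 9260 TPM at 84 h (SD, n = 3), the same order of ages as by share.

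Among the 555 symbols that RefSeq types as long noncoding RNAs, 359 of them with a count, cherub alone accounted for 86.9% ± 2.69 of their counts in the 24 h libraries, 90.3% ± 1.29 in those of 36 h, 85.3% ± 0.898 in those of 50 h and 67.2% ± 8.17 in those of 84 h. The next most counted long noncoding RNA was Hsromega, a nuclear RNA of the heat shock response, in 10 libraries, with 0.452 to 1.13% of gene counts. In 84 h replicates 2 and 3 it was pncr002:3R, with 0.912% and 0.979%. cherub was the most counted long noncoding RNA in all 12 libraries, and its share of these counts was lowest in these 2, at 60.6% and 64.7%.

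After TMM scaling cherub averaged 135087 ± 38440 CPM at 24 h, 176629 ± 53451 CPM at 36 h, 107775 ± 15564 CPM at 50 h and 50388 ± 23028 CPM at 84 h (SD, n = 3). In descending order the ages were 36, 24, 50 and 84 h. The 36 h libraries ranged from 120078 to 226318 CPM and overlapped those of 24 h (98480 to 175129 CPM). The 50 h libraries, at 92112 to 123237 CPM, overlapped both the 24 h and the 36 h libraries. The 84 h libraries, at 33411 to 76601 CPM, did not reach the 50 h range. As a ratio of means, cherub was 1.31-fold higher at 36 h than at 24 h (log2 0.39), 1.64-fold lower at 50 h than at 36 h (log2 -0.71) and 2.14-fold lower at 84 h than at 50 h (log2 -1.10). At 84 h it was 3.51-fold lower than at 36 h (log2 -1.81). The SD of the log2 difference between single libraries was 0.62, 0.51, 0.66 and 0.78 for these 4 comparisons, so the first difference was within that spread. Without 84 h replicate 1, the highest library of its age, the 84 h mean was 37281 CPM and the log2 ratio to 50 h was -1.53.

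Set beside genes with a mean of at least 100 CPM, cherub varied widely. Its SD within an age was 0.45 on the log2 CPM scale, near the median of 0.46 over the 7978 genes that passed the filter on low counts but above the median of 0.22 over the 1391 genes with a mean of at least 100 CPM. The distance between its highest and lowest age mean was 1.86 on the log2 scale. Of the 7978 genes 16.1% had a wider range, and of the 1391 abundant genes 3.88%. The cut of 100 CPM lies far below the cherub mean of 117470 CPM over all libraries. The other RNAs above 1% of gene counts everywhere also varied within an age. CR40677 spanned 32784 to 70306 CPM at 84 h, and CR41602 spanned 46836 to 108199 CPM at 36 h.

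The cherub counts are part of every gene total and so enter the CPM of the other genes. Leaving it out of plain gene totals raised the CPM of all others 1.10 to 1.16-fold at 24 h, 1.15 to 1.24-fold at 36 h, 1.11 to 1.14-fold at 50 h and 1.04 to 1.09-fold at 84 h. With TMM scaling, removal of cherub from the table before the fit hardly moved the number of genes that edgeR called. It was 72 of 7978 with cherub and 72 without for 36 h against 24 h, 339 and 337 for 50 h against 36 h, and 244 and 242 for 84 h against 50 h.

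The course depended on what cherub was divided by. Per ERCC count, cherub stood at 17.3, 11.7 and 19.1 at 24 h, 48.4, 36.8 and 32.9 at 36 h, 96.6, 35.6 and 26.1 at 50 h and 13.02, 17.99 and 14.29 at 84 h. On this scale every 36 h library lay above every 24 h library, the 50 h libraries spread from 26.1 to 96.6, and the 84 h libraries overlapped those of 24 h. The log2 ratio of 36 h to 24 h was 1.30 and that of 50 h to 36 h was 0.42, opposite in sign to the TMM value. The high value of 50 h replicate 1 came with the lowest ERCC count of the series, 6930, and without it the ratio of 50 h to 36 h was -0.35. Divided further by the number of sorted cells, cherub averaged 16.3 ± 3.33, 34.3 ± 10.7, 45.8 ± 28.1 and 14.6 ± 2.41 counts per ERCC count and 100 cells at the 4 ages. Total gene counts per ERCC count moved as well: they were 106 to 202 in the 24 h libraries, 224 to 253 in those of 36 h, 253 to 832 in those of 50 h and 166 to 432 in those of 84 h. With ERCC totals the median log2 difference of all genes tested was 0.86 at 36 h against 24 h, 1.10 at 50 h against 36 h and -0.48 at 84 h against 50 h, beside -0.01, 0.03 and -0.01 with TMM. In such pools fewer cells of a type and less RNA per cell cannot be told apart.

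**Figure D2:**
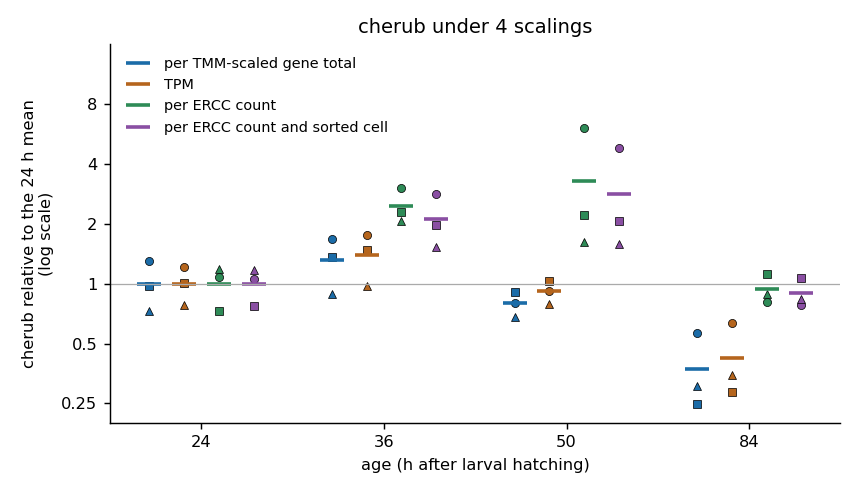
cherub relative to its 24 h mean (log scale) by age, under TMM-scaled gene totals, the authors' TPM, ERCC counts, and ERCC counts per sorted cell. Symbols are replicates (circle 1, square 2, triangle 3) and horizontal bars are means of 3 libraries. With gene totals and TPM the 84 h libraries lie below the 24 h mean, and with ERCC counts they lie on both sides of it.

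The genes next to cherub were far less abundant. In the BDGP6 annotation no other gene overlaps it, and its neighbours are CG5214, CG17734 and scpr-A on its lower-coordinate side and the long noncoding RNAs CR31386, TS25 and CR45055 on the other, followed by pros, which encodes the homeodomain differentiation factor Prospero. TS25 and CR45055 were not analysed here. CR31386 was the neighbour with a clear course. It had 387, 204 and 261 CPM at 24 h, 1136, 1276 and 870 CPM at 36 h, 587, 894 and 694 CPM at 50 h and 312, 186 and 208 CPM at 84 h. Its mean was highest at 36 h, as that of cherub was, the 36 h libraries overlapped those of 50 h, and the 84 h libraries overlapped those of 24 h.

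CR31386 rose 3.85-fold at 36 h against 24 h (log2 fold change 1.95 ± 0.24 SE, edgeR adjusted p = 8.34e-05), a step at which 0.451% of all genes tested rose. It fell 3.08-fold at 84 h against 50 h (-1.62 ± 0.23, edgeR adjusted p = 0.00019), where 1.89% of genes fell, a call lost under scaling to ERCC totals (-2.12, adjusted p = 0.151, the highest of 5.65e-16 to 0.151 over the alternatives). The step between 50 and 36 h was not called (-0.59 ± 0.23, adjusted p = 0.163). cherub had 453, 644 and 378 counts for each CR31386 count at 24 h, 199, 144 and 138 at 36 h, 184, 138 and 133 at 50 h and 245, 180 and 198 at 84 h. The 24 h libraries stood apart from all others in this ratio, which is free of any scaling between libraries.

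The other neighbours went their own ways. CG5214 rose 1.62-fold at 50 h against 36 h (0.70 ± 0.17, edgeR adjusted p = 0.0206), to 145 ± 6.22 CPM at 50 h, against 89.2 ± 8.94 CPM at 36 h, but this call was lost when any library of 50 h or replicate 1 or 2 of 36 h was left out (adjusted p up to 0.109) or under ERCC totals (0.117). CG17734 averaged 129 to 154 CPM at the 4 ages and passed in none of the tests (edgeR adjusted p = 0.543 for any age). scpr-A had at most 6 counts in a library. The gene pros had 34.0 ± 16.6, 41.5 ± 18.6, 92.3 ± 31.4 and 62.9 ± 14.0 CPM at the 4 ages and differed between ages (edgeR adjusted p = 0.0135), a call lost on TPM (0.242) and without 24 h replicate 3 (0.0528) or 50 h replicate 1 (0.0816).

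**Figure D3:**
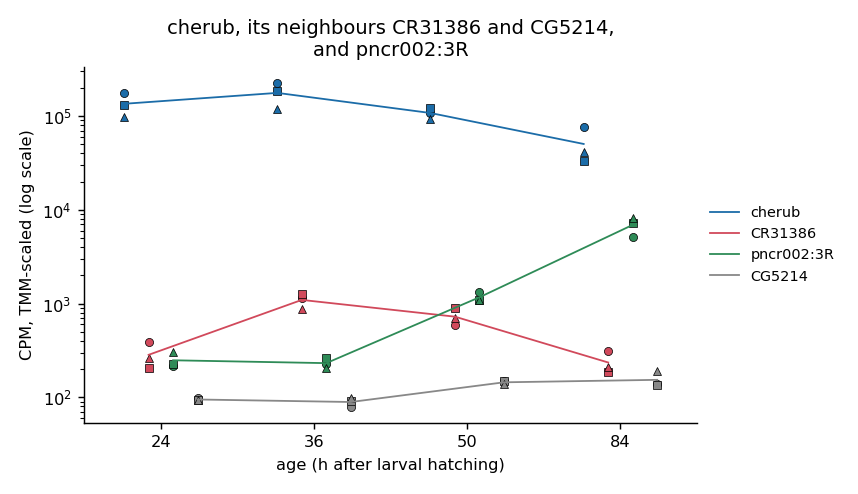
CPM (TMM-scaled, log scale) of cherub, its neighbours CR31386 and CG5214, and the long noncoding RNA pncr002:3R in each library by age. Symbols are replicates (circle 1, square 2, triangle 3) and lines join the means of 3 libraries. The means of cherub and CR31386 are highest at 36 h, and that of pncr002:3R at 84 h.

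Of 11 other named long noncoding RNAs, 6 passed the filter and 3 differed between ages, namely CR31386, pncr002:3R and roX1, where 19.5% of all genes tested did. pncr002:3R rose 5.05-fold at 50 h against 36 h (2.34 ± 0.19, edgeR adjusted p = 6.12e-08), where 1.88% of genes rose, and 5.91-fold at 84 h against 50 h (2.56 ± 0.19, edgeR adjusted p = 6.6e-09; 0.172 with ERCC totals), where 1.17% did. For each pncr002:3R count there were 820, 585 and 321 cherub counts at 24 h and 14.8, 4.57 and 4.99 at 84 h, with no overlap between these ages. roX1, an RNA of male dosage compensation, fell 1.73-fold at 84 h against 50 h (-0.79 ± 0.16, edgeR adjusted p = 0.00496), to 3129 ± 436 CPM at 84 h, against 5427 ± 546 CPM at 50 h, a call lost without 50 h replicate 2 (0.052) and with ERCC totals (0.956). Hsromega averaged 6385 to 8477 CPM and did not pass (edgeR adjusted p = 0.767 for any age); leaving out 36 h replicate 1, whose 13191 CPM stood far above the other 2 libraries of its age, gave 0.016. roX2 averaged 0.867 to 7.11 CPM and pncr003:2L 0.447 to 5.10 CPM, and neither passed (edgeR adjusted p = 0.0965 and 0.0867 for any age). roX2 did pass with DESeq2 (0.0206) and on log2(TPM + 1) (0.0458), and pncr003:2L with ERCC totals (0.00602), DESeq2 (0.0211) and TPM at either pseudocount (0.0274 and 0.0315). yar had at most 7 counts in a library and sphinx at most 18. pncr008:3L, bft and bxd had 0 counts in all 12 libraries. For a single library taken alone, 0 counts allow up to 3 by counting error.

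For the proteins known to act with cherub, only RNA was measured. A list of 20 genes of cherub partners and of asymmetric division was followed, all of which passed the filter. Of these, 8 differed between ages (stau, Syp, Imp, mira, pros, numb, aPKC and raps), against 19.5% of all genes tested. At the single steps 1, 2 and 2 members were called, against 0.902%, 4.25% and 3.06% of all genes. Syp rose at the first step (0.451% of genes rose), Syp rose and Imp fell at the second (1.88% rose and 2.37% fell), and stau rose and Imp fell at the last (1.17% rose and 1.89% fell). The list median was -0.12 at 36 h against 24 h, 0.03 at 50 h against 36 h and -0.16 at 84 h against 50 h on the log2 scale, beside -0.01, 0.03 and -0.01 over all genes tested.

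The staufen gene stau, whose product binds cherub, was highest at 84 h. It had 2181, 2293 and 1806 CPM at 24 h, 2357, 2215 and 1710 CPM at 36 h, 1800, 2130 and 1589 CPM at 50 h and 4302, 3606 and 3604 CPM at 84 h. The 84 h libraries lay above all 9 others. stau rose 2.09-fold at 84 h against 50 h (1.06 ± 0.16, edgeR adjusted p = 0.000365, at most 0.00602 when any library was left out), while cherub stood 2.14-fold lower. With ERCC totals the log2 difference was 0.55 and was not called (adjusted p = 0.956). For each stau count there were 80.3, 57.4 and 54.5 cherub counts in the 24 h libraries, 96.0, 82.8 and 70.2 in those of 36 h, 60.0, 57.9 and 58.0 in those of 50 h and 17.8, 9.26 and 11.4 in those of 84 h.

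Syp was lowest and Imp highest at 24 h. Syp had 625, 464 and 722 CPM at 24 h, 16849, 9561 and 7938 CPM at 36 h, 28998, 31335 and 25347 CPM at 50 h and 33143, 21501 and 22153 CPM at 84 h. It rose 19-fold at 36 h against 24 h (4.25 ± 0.27, edgeR adjusted p = 1.97e-09), and 2.49-fold at 50 h against 36 h (1.32 ± 0.24, edgeR adjusted p = 0.00193). At 84 h against 50 h it did not pass (-0.16 ± 0.23, edgeR adjusted p = 0.867). Syp had no TPM value in any library, so it could not be called on TPM. For each Syp count there were 280, 284 and 137 cherub counts at 24 h, 13.4, 19.2 and 15.1 at 36 h, 3.72, 3.93 and 3.63 at 50 h and 2.31, 1.55 and 1.86 at 84 h. Imp had 74782, 58168 and 44295 CPM at 24 h, 38089, 40653 and 27610 CPM at 36 h, 7363, 7854 and 6230 CPM at 50 h and 283, 185 and 217 CPM at 84 h. Its fall at 84 h against 50 h was 31.3-fold (-4.97 ± 0.24, edgeR adjusted p = 1.5e-12), and that at 50 h against 36 h was 4.96-fold (-2.31 ± 0.21, edgeR adjusted p = 3.27e-07; 0.222 with ERCC totals). At 36 h against 24 h Imp did not pass (-0.74 ± 0.20, edgeR adjusted p = 0.0868), though it did in 6 alternatives, DESeq2 among them. cherub counts thus outnumbered those of Imp 2.22 to 2.34 times at 24 h, 4.35 to 5.94 times at 36 h, 14.7 to 15.7 times at 50 h and 181 to 271 times at 84 h.

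Within an age, most ratios of cherub to these genes varied less than the CPM of cherub. At 24 h the CPM of cherub had a coefficient of variation of 28.5%, and its ratios to Imp, stau and Syp had 2.65%, 22.03% and 36.0%, the last above that of cherub. At 36 h it was 30.3% for the CPM and 17.75%, 15.54% and 18.59% for the ratios to Imp, stau and Syp. At 50 h the coefficient was 14.4% for the CPM of cherub, 2.06% for its ratio to stau, 3.73% for that to Imp and 4.08% for that to Syp. At 84 h it was 45.7% for the CPM and 34.63%, 23.22% and 19.98% for the ratios to stau, Imp and Syp. Genes outside the partner list gave low values too. At 24, 36, 50 and 84 h the ratio of cherub to CR31386 had 27.91%, 21.11%, 18.67% and 16.28%. That to CR41602 had 27.97%, 20.28%, 20.45% and 24.09%. Both lay below the CPM of cherub in this measure at 24, 36 and 84 h, and above it at 50 h. All these ratios rest on 3 libraries per age and were singled out after their values were seen.

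**Figure D4:**
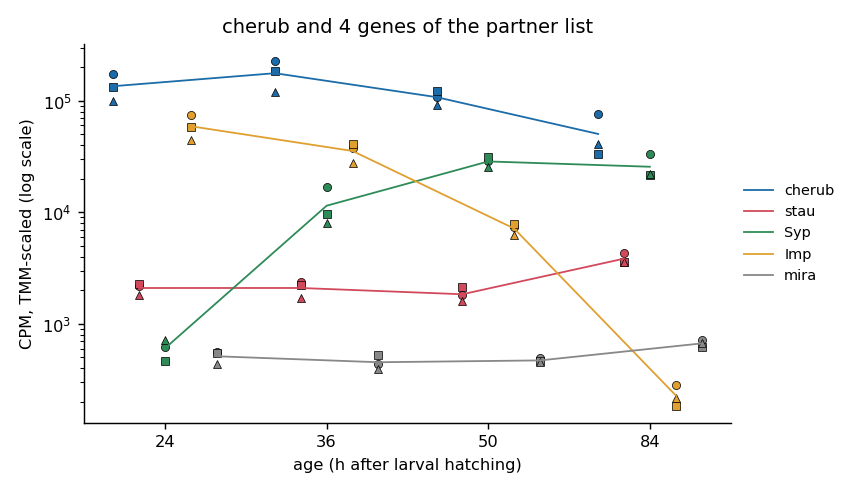
CPM (TMM-scaled, log scale) of cherub and of stau, Syp, Imp and mira in each library by age. Symbols are replicates (circle 1, square 2, triangle 3) and lines join the means of 3 libraries. stau lies between 3604 and 4302 CPM at 84 h, above its other libraries, while cherub is lowest there.

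Among the other members of the list, calls were lost or gained under some alternatives. mira, which encodes the scaffold Miranda, averaged 667 ± 50.0 CPM at 84 h, against 469 ± 23.9 CPM at 50 h, and differed between ages (edgeR adjusted p = 0.0322) while this step was not called (0.51 ± 0.16, adjusted p = 0.095). The step was called with plain gene totals (0.0113), DESeq2 (0.0377) and the replicate number as a block (0.0457). The call for any age was lost without any single 84 h library and 4 others (adjusted p up to 0.11). numb, an inhibitor of Notch signalling, averaged 351 ± 15.6, 507 ± 103, 527 ± 20.3 and 404 ± 40.9 CPM at the 4 ages (edgeR adjusted p = 0.0249 for any age, lost in 6 of the leave-outs, with up to 0.0956). The gene of the apical kinase aPKC had 197 ± 38.0, 186 ± 22.7, 139 ± 23.8 and 117 ± 10.6 CPM (edgeR adjusted p = 0.00856 for any age, lost with plain gene totals, ERCC totals and TPM, with up to 0.278). raps, the Partner of inscuteable gene that links the spindle to cortical polarity, had 62.8 ± 5.20, 42.78 ± 7.003, 37.4 ± 8.42 and 23.9 ± 6.96 CPM (edgeR adjusted p = 0.00281 for any age, lost with plain gene totals, 0.056, and ERCC totals, 0.339). brat averaged 915 to 1158 CPM and did not pass (edgeR adjusted p = 0.332 for any age). The other 11 members, among them insc, baz, par-6, l(2)gl and dlg1, had adjusted p values of 0.0851 or above for any age. With ERCC totals insc (0.0159), polo (0.0172), par-6 (0.0298), baz (0.0474) and mud (0.0498) passed. That setting called 2780 of all 7978 genes tested for any age, where TMM called 1556. With plain gene totals polo (0.00774) and l(2)gl (0.0149) passed. scrib passed without the filter on low counts (0.0241), with the block (0.0258) and without 24 h replicate 3 (0.0149) or 36 h replicate 2 (0.0352).

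The broader list of 22 genes of RNA localisation and translation control had 20 members that passed the filter, and 8 of them differed between ages, where 19.5% of all genes tested did. At 36 h against 24 h 1 rose and 0 fell, where 0.451% of all genes rose and 0.451% fell. At 50 h against 36 h 1 rose and 3 fell (1.88% and 2.37% of all genes), and at 84 h against 50 h 1 rose and 1 fell (1.17% and 1.89%). Its medians were -0.17, -0.16 and -0.05 on the log2 scale, beside -0.01, 0.03 and -0.01 over all genes tested. Syp, Imp, stau and brat belong to both lists. Step calls of genes outside the partner list were only the falls of sqd (-0.91) and rin (-1.06) at 50 h against 36 h. Both were lost with ERCC totals.

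The genes whose pattern was most like that of cherub were found by the SD over the 12 libraries of log2(gene/cherub), computed on counts plus 1 and free of any scaling between libraries. Among the 5014 other genes with a mean of at least 10 CPM the median SD was 0.91, and the 8 lowest ran from 0.28 to 0.36, with 0.39 for the next gene. They were CG30497, the splicing regulator mbl, the nuclear receptor coactivator tai, the atypical cadherin stan, the zinc-finger temporal factor chinmo, the PAR-bZIP factor Pdp1, the receptor tyrosine kinase antagonist sty and the homeodomain factor hth. None was a long noncoding RNA, and CR31386 ranked 1000 by this measure (SD 0.75).

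Each of the 8 was lowest at 84 h, as cherub was. mbl averaged 2522 ± 575 CPM at 24 h, 2383 ± 526 CPM at 36 h, 1420 ± 326 CPM at 50 h and 726 ± 233 CPM at 84 h. chinmo averaged 1934 ± 411.5, 1497 ± 228, 1091 ± 162 and 499.8 ± 212 CPM at the same ages. CG30497, stan, Pdp1 and hth had their highest mean at 36 h, like cherub, with 692 ± 140, 221 ± 65.9, 103 ± 16.4 and 447 ± 80.2 CPM, while mbl, tai, chinmo and sty had theirs at 24 h. As these genes were picked for likeness in the same libraries, they get no test. The choice rests on the 84 h libraries: without them 1 of the 8 remained among the 8 most alike, and without the libraries of 24, 36 or 50 h it was 5, 6 or 4. By Pearson correlation of log2 CPM 3 of the 8 remained.

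**Figure D5:**
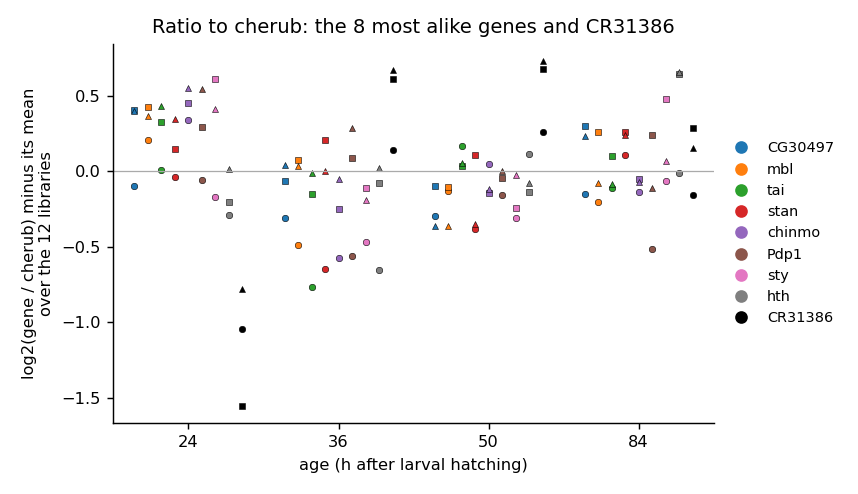
log2 of the ratio of each gene's count to that of cherub, minus its mean over the 12 libraries, by age, for the 8 genes most like cherub and for CR31386 (black). Symbols are replicates (circle 1, square 2, triangle 3). A gene in fixed proportion to cherub would lie on the zero line; CR31386 lies lowest at 24 h.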

How the data were processed

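RNA of sorted cells was amplified with the Ovation RNA-Seq System V2 and made into libraries with an Encore kit, per the labels' protocols. The authors deposited counts per gene symbol and for 92 ERCC RNAs and, in a second table, TPM per gene. The submitters' processing notes list HTSeq 0.6.1p1, STAR 2.4.0i, Bowtie2 2.1.0, cutadapt 1.7.1 and CASAVA as tools, and BDGP5, dm3 and mm10 as builds. The sources used here do not give their roles, the strand setting or the gene lengths used for TPM. Values of overlapping or antisense genes are therefore uncertain. BDGP6, which is not among the listed builds, served only for names, the order of neighbours and overlap with cherub. A blank row (10 counts, 1.49e-05% of all) was left out. In the deposited TPM, Imp is listed at 0 in all 3 libraries at 84 h despite 1229 to 1643 counts, so genes other than cherub are given in CPM.

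Tests used edgeR 4.0.16 in R 4.3.3 on the counts of all 12 libraries (TMM, filterByExpr, robust quasi-likelihood fit, 8 residual degrees of freedom), two-sided, Benjamini-Hochberg adjusted over 7978 genes (99.85% of gene counts), threshold 0.05, for any age and 3 consecutive steps. SE is the log2 fold change divided by the square root of F. The fit was tested on simulated data. Alternatives used DESeq2 1.42.0, limma 3.58.1 on log2(TPM + 1) and log2(TPM + 0.1), other scalings and filters, and omission of each library. RefSeq names matched 15075 symbols. List members were matched by current or older symbol (5 by the latter; nSyb was not matched). Named genes were cherub, RNAs above 1% everywhere, the partner and long noncoding RNA lists, 3 neighbours a side (and pros beyond them), the temporal factors set beside cherub, cell type markers, and the 8 most alike genes. Members and lists were chosen with earlier results of these data known.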

Additional observations from a re-analysis of the deposited data

How the results depend on the processing

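The level of cherub at each age moved by less than 1 SD under plain gene totals and DESeq2 size factors. Divided by gene totals without itself its 50 h level was 129023 CPM, above the SD, and the other ages moved by less. Leaving out single libraries gave 115066 to 153391 CPM at 24 h, 151784 to 204904 at 36 h, 100044 to 115606 at 50 h and 37281 to 58876 at 84 h. The log2 ratio then ran from 0.17 to 0.62 for 36 h against 24 h, -0.93 to -0.49 for 50 h against 36 h, -1.53 to -0.87 for 84 h against 50 h and -2.24 to -1.58 for 84 h against 36 h. With ERCC totals the ratio was 1.30 for 36 h against 24 h (1.08 per sorted cell), 0.42 for 50 h against 36 h (0.41 per sorted cell), which turned its sign, and -1.80 for 84 h against 50 h. Without 50 h replicate 1, chosen after seeing the data, the ERCC-scaled ratios were -0.35 for 50 h against 36 h and -1.03 for 84 h against 50 h. The cause of these shifts was not tested.

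The number of genes called for any age was 1556, and 2780 with ERCC totals. For 36 h against 24 h it was 72, and 20 with ERCC totals, 247 without the filter on low counts, 198 with DESeq2, and 31 and 29 with limma on TPM at a pseudocount of 1 and 0.1. For 50 h against 36 h it was 339, and 148 with ERCC totals, 541 without the filter, 528 with DESeq2 and 211 on TPM at 0.1. For 84 h against 50 h it was 244, and 33 with ERCC totals, and 110 and 104 on TPM. ERCC totals also moved the split of calls, to 20 higher and 0 lower, 144 and 4, and 5 and 28 at the 3 steps, where TMM gave 36 and 36, 150 and 189, and 93 and 151. Plain gene totals gave 44 and 25, 239 and 115, and 126 and 96, with a median over all genes of 0.12, 0.20 and 0.10 (log2), and TPM at a pseudocount of 1 gave 25 and 6, and 174 and 78, at the first 2 steps. Leave-outs gave 1203 to 1739 for any age, 29 to 180, 157 to 444 and 112 to 263 for the 3 steps.

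Of the partner list, 8 were called for any age, 5 at either pseudocount on TPM (which lacks Syp) and 6 to 8 in leave-outs. At 36 h against 24 h 1 (Syp) was called, 0 on TPM and 1 to 2 in leave-outs. Plain gene totals gave 3, and DESeq2 or no filter gave 2. Over all genes, 72 were called, 31 and 29 on TPM, 69 with plain gene totals, 198 with DESeq2 and 247 without the filter. At 50 h against 36 h 2 were called, 1 on TPM and 2 to 3 in leave-outs, where all genes gave 339, and 252 and 211 on TPM. At 84 h against 50 h it was 2, 1 with ERCC totals and 2 in every leave-out, where all genes gave 244, and 33 with ERCC totals. Of the temporal factors, svp at 50 h against 36 h turned to 0.16 with ERCC totals. Single genes lost calls in some settings and gained them in others. svp was the only case where a called value turned its sign. Signs of values that were not called were not counted.

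With the replicate number as a block, 119 genes were called for 36 h against 24 h and 2 members of the partner list. Single calls gained with it include Imp at 36 h against 24 h (0.00961) and pros (0.0369) and roX1 (0.0483) at 50 h against 36 h. Deviations of same-numbered libraries correlated at -0.0908 to 0.128 over 18 pairs, and 1 pair exceeded 0.1. Libraries of different numbers were not compared, so these values cannot decide whether the numbers pair the libraries. Depth did not limit cherub, and genes at a few counts, such as scpr-A, were not tested.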
